A study of Mus musculus with 5 samples.

Results

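Cluster 8 of CD45+ mouse thyroid cells was described. It was taken as every cell that the authors' deposited cell table assigns to cluster 8, which gave 474 of 10275 cells. It had been named natural killer-like from Ncr1, Klra4, Klre1, Xcl1, Gzmb and Serpinb9, and all of these led the cluster. Transcripts of the CD3 complex and of T cell receptor segments were found in most of its cells, against that name, so it is called cluster 8 here.

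The cells came from thyroids of NOD.WT mice, a strain prone to autoimmunity, of both sexes and 4 to 6 weeks of age at the start. Immune checkpoint inhibition (ICI) was intraperitoneal anti-PD-1 (clone RPM1-14) together with anti-CTLA-4 (clone 9D9), at 10 mg/kg per dose, 2 doses per week for 4 weeks. Isotype control mice received antibodies of clones 2A3 and MPC11. After perfusion and collagenase digestion, live CD45+ cells were sorted and sequenced with the 10x 5' method, as 4 ICI libraries (ICI 1 to 4, from 16 mice in all) and 1 isotype library (from 10 mice). Mice were pooled, and the labels do not say how many went into each library or whether the 4 ICI libraries came from separate pools. SDs and p-values therefore measure the spread between libraries only, which may be technical in part.

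Natural killer (NK) cells are innate lymphocytes that kill stressed or infected cells with perforin and granzymes and secrete interferon gamma and chemokines. They are steered by germline-encoded activating and inhibitory receptors, many of them lectin-like Klr proteins, and they carry neither a rearranged T cell receptor nor a surface CD3 complex. Gamma-delta T cells, natural killer T cells and some activated CD8 T cells share much of the NK receptor and granule program while carrying CD3.

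Cluster 8 held 42, 95, 94 and 167 cells in ICI 1 to 4 and 76 cells in isotype. The median cell held 1211, 2717, 3568.5 and 5554 unique molecular identifiers (UMIs) in ICI 1 to 4, while the median in isotype was 4351.5. ICI 1 stood apart by depth, with 16 of its 42 cells under 1000 UMIs. ICI 2 and ICI 3 shared 139 cell barcodes, 3 of them inside cluster 8. ICI 4 lay closer to isotype than to any ICI library: over 6493 genes the median absolute log2 difference in cluster 8 was 0.26 between ICI 4 and isotype, 0.28 between ICI 2 and ICI 3, and 0.44 to 0.70 in the other pairs. Xist, the transcript of the inactive X chromosome, had 42, 36, 52 and 0 UMIs in cluster 8 of ICI 1 to 4 and 0 in isotype. Both ICI 4 and isotype thus lacked that female transcript. Macrophage markers summed to 9 to 48 CPM (UMIs per 1000000 UMIs) in the ICI libraries and 25 in isotype, neutrophil markers to 0 and 5, and thyrocyte and epithelial markers to 9 to 24 and 41.

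The leading genes of cluster 8 were NK receptors, chemokines and granule genes. They were the 20 with the largest log2 difference from all other cells of the same library, with antigen receptor genes, ribosomal protein genes, mitochondrial genes and unnamed gene models left out of the ranking. Ranked with them, the receptor segment Trav15-1-dv6-1 (mean log2 difference 3.27) would have stood just above Klrc1, among the 20. Since clustering used them, they are given without a test. Ncr1, which encodes the activating receptor NKp46, stood at 1680, 1809, 1399 and 233 CPM in cluster 8 of ICI 1 to 4 and at 591 CPM in isotype, against 0.4 to 15.9 CPM in the other cells. Cluster 8 held 87% to 96% of each library's Ncr1 UMIs. Xcl1, a chemokine that attracts cross-presenting dendritic cells, was at 1150, 2026, 3040 and 1071 CPM in cluster 8 of the ICI libraries and at 1248 CPM in isotype. Ncr1 lies on chromosome 7 (4337724 to 4345164, plus strand) and Xcl1 on chromosome 1 (164931644 to 164935527, minus strand) of GRCm38. Of the 20 leading genes, 12 were Klr genes within 1 stretch of chromosome 6 (128609227 to 130386874), the NK gene complex. That stretch holds 42 genes of the count table, and 17 of them were seen in at least 20% of cluster 8 cells.

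The 250 bases before the RefSeq start of both genes are shown because Ncr1 and Xcl1 are the receptor and the chemokine that set cluster 8 apart most, and NK genes are known targets of RUNX and T-box factors. The Ncr1 window is chr7:4337465-4337714 on the plus strand and the Xcl1 window chr1:164935523-164935772 on the minus strand (GRCm38.p6, RefSeq). Capitals mark the RUNX core TGTGGT, read on either strand.
Ncr1: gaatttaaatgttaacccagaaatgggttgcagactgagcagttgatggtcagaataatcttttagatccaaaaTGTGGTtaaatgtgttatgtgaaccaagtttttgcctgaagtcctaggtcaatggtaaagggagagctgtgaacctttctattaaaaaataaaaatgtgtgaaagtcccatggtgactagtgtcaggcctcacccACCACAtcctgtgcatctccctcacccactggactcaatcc
Xcl1: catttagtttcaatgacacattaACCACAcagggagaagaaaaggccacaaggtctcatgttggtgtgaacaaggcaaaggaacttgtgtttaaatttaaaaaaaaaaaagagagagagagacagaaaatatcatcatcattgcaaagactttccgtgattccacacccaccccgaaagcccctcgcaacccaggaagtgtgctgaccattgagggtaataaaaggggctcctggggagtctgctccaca

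The RUNX core was found in 11 of the 18 leading genes with a RefSeq promoter window, or 61.1%, and in 14.2% of 27025 mouse promoter windows of the same length. It occurred at 2 positions before Ncr1 and at 1 before Xcl1. It also occurred before Klre1, Klra1, Klrb1a, Klrk1, Klrc1, Klrb1c, Klrc3, Gzmb and Cd160. The Klr genes among them are related genes of the NK gene complex, so their windows need not be independent. The T-box core AGGTGT, read on either strand and not overlapping the RUNX letters, was found in 1 of the 18 (5.56%), the potassium channel gene Kcnj8, and in 12.0% of all windows. These are matches of letters and no evidence of binding.

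Receptors came first among the leading genes. Klra genes encode Ly49 receptors for class I molecules, which differ between mouse strains in number and sequence. Reads from NOD mice may be split between near-identical members, so each Klra value is uncertain. Klra5 was at 194, 540, 883 and 489 CPM in cluster 8 of ICI 1 to 4 and at 292 CPM in isotype. Klra4 was at 582, 191, 201 and 238 CPM in the ICI libraries and at 275 CPM in isotype. Isotype thus lay inside the range of the ICI libraries for both. Individual cells differed in the Ly49 transcripts they held: cells with no Klra UMI made up 38.1%, 28.4%, 18.1% and 14.4% of cluster 8 in ICI 1 to 4 and 27.6% in isotype, and cells with 3 or more Klra genes made up 19.0%, 20%, 29.8% and 53.9% in the ICI libraries and 31.6% in isotype. Both orders among the ICI libraries follow their depth.

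Klrk1, the NKG2D receptor for stress-induced ligands, was at 956, 1129, 877 and 195 CPM in ICI 1 to 4 and at 327 CPM in isotype. Klrd1 (CD94), the partner of the NKG2 receptors, was at 556, 662, 554 and 293 CPM in the ICI libraries and at 262 CPM in isotype. Its inhibitory partner Klrc1 (NKG2A) was at 543, 467, 370 and 190 CPM in the ICI libraries and at 499 CPM in isotype. ICI 4 was the lowest of the ICI libraries for Ncr1, Klrk1, Klrd1 and Klrc1, and isotype lay below ICI 1 to 3 for the first 3 of these. Klrb1a showed little spread, at 168, 191, 169 and 170 CPM in the ICI libraries and at 196 CPM in isotype.

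**Figure D1:**
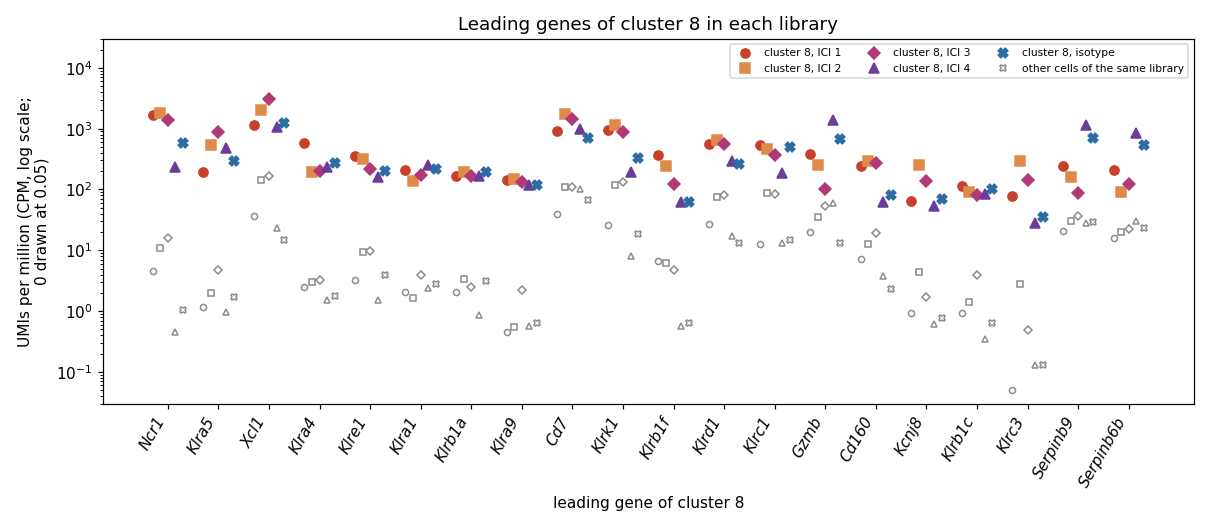
Level of each of the 20 leading genes of cluster 8 (CPM, log scale, with 0 drawn at 0.05) in the 4 ICI libraries and the isotype library, filled symbols for cluster 8 and open symbols for all other cells of the same library. Every filled symbol lies above the open symbol of its library; Ncr1 in ICI 4 (233 CPM) and isotype (591 CPM) lies below that in ICI 1 to 3 (1399 to 1809 CPM).

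The granule genes of the naming markers varied more between libraries than the receptors. Gzmb, the granzyme that triggers caspases, was at 388, 250, 102 and 1415 CPM in ICI 1 to 4 and at 681 CPM in isotype. Serpinb9, which protects killer cells from their own granzyme B, was at 246, 158, 87 and 1138 CPM in the ICI libraries and at 703 CPM in isotype. For both genes ICI 4 was highest and isotype came next, above ICI 1 to 3. Gzma, a further granzyme, had another order, with 1745, 298, 732 and 283 CPM in the ICI libraries and 1022 CPM in isotype. Prf1, the pore-forming perforin, was at 375, 158, 160 and 115 CPM in the ICI libraries and at 194 CPM in isotype, within the ICI range.

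CD3 transcripts were the main measurement against the NK name. A UMI of Cd3d, Cd3e or Cd3g was found in 76.2% (32 of 42), 76.8% (73 of 95), 87.2% (82 of 94) and 92.8% (155 of 167) of cluster 8 cells in ICI 1 to 4. In isotype it was found in 77.6% (59 of 76; exact Clopper-Pearson 95% interval 66.6% to 86.4%, counting error only). In all, 401 cells had such a UMI and 73 had none. Most cells with CD3 transcripts held many of them: 325 cells held 8 or more UMIs, 38 held 4 to 7 and 38 held 1 to 3. The median was 1.5, 10, 16 and 15 UMIs per cell in ICI 1 to 4 and 11 in isotype, the lowest in ICI 1, whose cells were the shallowest.

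The summed Cd3 level was 2817, 3706, 4683 and 2496 CPM in cluster 8 of ICI 1 to 4 and 2398 CPM in isotype. In all other cells it was 2852, 3559, 3851 and 3108 CPM in the ICI libraries and 2809 CPM in isotype. Cluster 8 lay above them in ICI 2 and ICI 3 and below them in the other libraries. In effector T-like cluster 1 it was 3412, 4686, 4932 and 3550 CPM in ICI 1 to 4 and 4153 CPM in isotype. In gamma-delta T-like cluster 6 it was 6146, 6111, 6312 and 3071 CPM in ICI 1 to 4 and 3213 CPM in isotype. Cluster 8 lay below both in every library. Free RNA can place CD3 UMIs in cells that lack the complex, so clusters 10 (type 2 innate lymphoid-like) and 7 (macrophage-like) were set beside these values. A CD3 UMI was found in 52.2% to 64.6% of cluster 10 cells in the ICI libraries and 40.2% in isotype (median depth 3440.5 to 4915 and 3076 UMIs). In cluster 7 it was found in 10.5% to 53.3% of cells in the ICI libraries and in 72.9% in isotype, where the median cell held 9932 UMIs. Cells were then thinned to 1000 UMIs each, which left out 16, 3, 4 and 0 shallower cluster 8 cells in ICI 1 to 4 and 0 in isotype. At that depth the share was 69.2%, 70.7%, 84.4% and 83.8% in cluster 8 of ICI 1 to 4 and 72.4% in isotype. It was then 29.9% to 41.6% in cluster 10 of the ICI libraries and 26.5% in isotype, and 5.73% to 44.4% in cluster 7 of the ICI libraries and 58.9% in isotype. Cluster 8 was highest of the 3 in every library. The summed Cd3 level of cluster 10 was 468 to 766 CPM in the ICI libraries and 598 CPM in isotype. That of cluster 7 was 71.0 to 1113 CPM in the ICI libraries and 1749 CPM in isotype. The part of free RNA or mixed droplets in the cluster 8 value was not tested; its level lay above those of clusters 7 and 10 in every library.

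**Figure D2:**
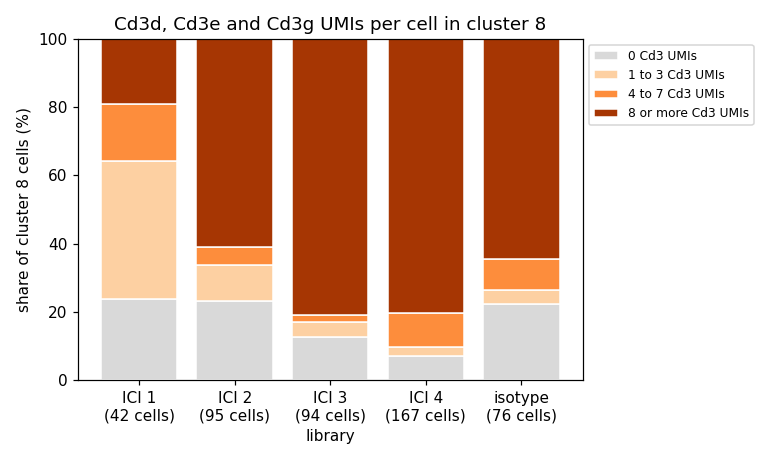
Share of cluster 8 cells (%) with 0, 1 to 3, 4 to 7 and 8 or more UMIs of Cd3d, Cd3e and Cd3g together, in each ICI library and in isotype. Cells with 8 or more make up most of cluster 8 in every library but ICI 1, where 8 of 42 cells reach that number.

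Among variable segments, those of the gamma chain were found in the most cluster 8 cells. A UMI of a gamma variable segment was found in 64.3%, 64.2%, 78.7% and 73.7% of cluster 8 cells in ICI 1 to 4 and in 56.6% in isotype (95% interval 44.7% to 67.9%). Cluster 6, the gamma-delta T-like cluster, had 76.1% to 100% over the 5 libraries, the effector T-like cluster 1 had 8.67% to 28.9%, and cluster 10 had 11.8% to 23.3%. Cluster 8 thus lay between cluster 6 and clusters 1 and 10 in this measure. At 1000 UMIs per cell the share was 57.7%, 54.3%, 62.2% and 39.5% in cluster 8 of ICI 1 to 4 and 35.5% in isotype, and 2.22% to 4.48% in cluster 10 of the ICI libraries and 4.27% in isotype. Beta variable segments were found in 40.5%, 38.9%, 51.1% and 55.1% of its cells in ICI 1 to 4 and in 44.7% in isotype, below cluster 1 in every library. The beta constants Trbc1 or Trbc2 were found in 59.0% ± 16.3 (SD, n = 4) of cluster 8 cells in ICI and 68.4% in isotype. The delta constant Trdc was found in 33.9% ± 13.3 (SD, n = 4) in ICI and 39.5% in isotype. Delta variable segments were found in 23.4% ± 2.29 (SD, n = 4) in ICI and 27.6% in isotype. Segment transcripts are not all from productive rearrangements, and paired receptor sequences were not used here.

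The segments themselves separated cells with and without CD3 transcripts. Among cells with CD3, a gamma variable segment was found in 78.1%, 79.5%, 87.8% and 79.4% in ICI 1 to 4 and in 67.8% in isotype. Among cells without CD3 it was found in 20%, 13.6%, 16.7% and 0% in the ICI libraries (0 of 12 in ICI 4, which allows a share of cells with such a UMI of up to 25.0%) and in 17.6% in isotype. Alpha and beta variable segments together were found in 25.0%, 34.2%, 37.8% and 38.1% of cells with CD3 in ICI 1 to 4 and in 39.0% in isotype, but in 0 of the 73 cells without CD3. Many cells had all 3 chains: a gamma segment beside both alpha and beta segments occurred in 25.0%, 28.8%, 34.1% and 31.0% of cells with CD3 in ICI 1 to 4 and in 25.4% in isotype. Whether such droplets held more than 1 cell was not tested.

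Single segments were counted over the cells of all libraries together, and a segment UMI does not show that the chain was used. Trgv2 was found in 266 of 401 cells with CD3 (66.3%) and in 2 of 73 without (2.74%). Tcrg-V1 was found in 180 with CD3 (44.9%) and in 8 without, and Tcrg-V4 in 120 with CD3 (29.9%) and in 1 without. The shared alpha and delta segment Trav15-1-dv6-1 was found in 127 cells with CD3 (31.7%) and in 0 without, against 1.3% of all cluster 1 cells and 3.1% of all cluster 6 cells. Trdv4 went the other way: it was found in 35 cells with CD3 (8.73%) and in 27 without (37.0%), while 83.4% of cluster 6 cells had it. Cluster 8 and cluster 6 therefore differed in the delta segments they held. The libraries differed too: Trav15-1-dv6-1 was at 103, 404, 458 and 57 CPM in cluster 8 of ICI 1 to 4 and 46 CPM in isotype. The beta segments were diverse, with 23 of 25 Trbv and 52 of 77 Trav segments detected, and Trbv13-2 was the most frequent Trbv, in 79 cells with CD3 (19.7%).

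**Figure D3:**
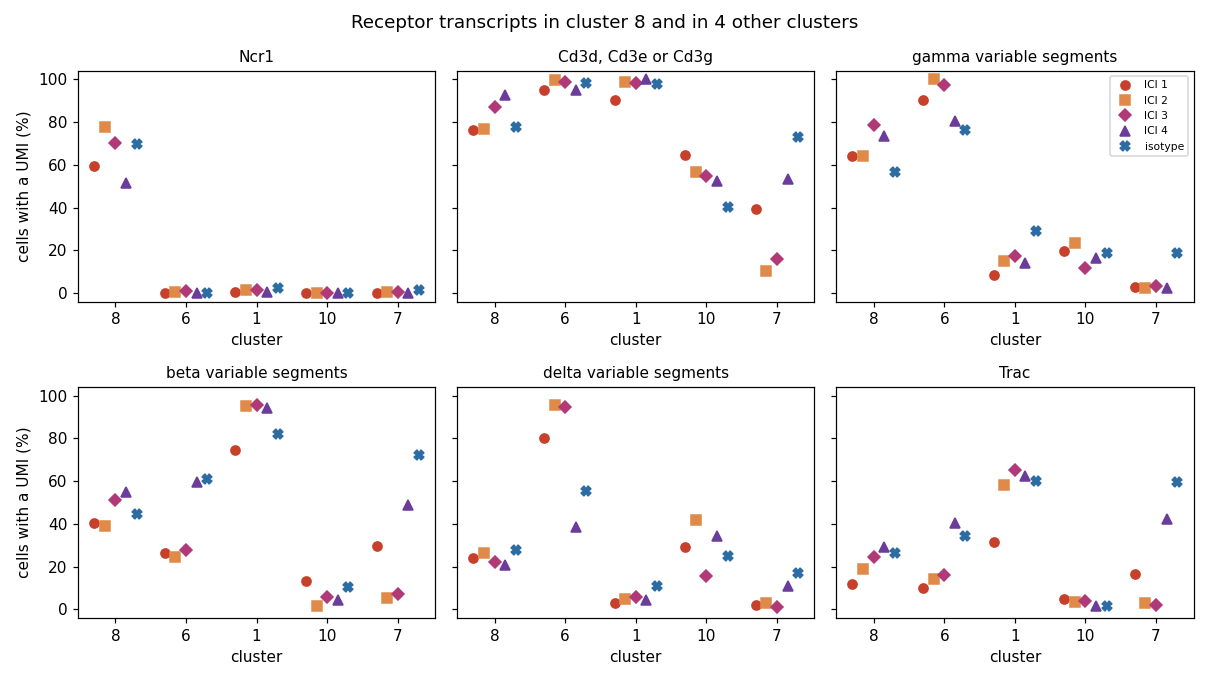
Share of cells (%) with a UMI of Ncr1, of Cd3d, Cd3e or Cd3g, of gamma, beta or delta variable segments, or of Trac, in cluster 8 and in clusters 6 (gamma-delta T-like), 1 (effector T-like), 10 (type 2 innate lymphoid-like) and 7 (macrophage-like), 1 symbol per library. Cluster 8 alone among these has Ncr1 in most cells, and its Cd3 and gamma shares lie above those of cluster 10 in every library.

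Cells with and without CD3 transcripts inside cluster 8 differed in 23 of 1072 genes tested (2.15%), 10 higher (0.933%) and 13 lower (1.21%) in cells with CD3. The counts were summed per library on each side, and edgeR's quasi-likelihood test was fitted with the library as a block, a Benjamini-Hochberg adjusted p under 0.05 and Cd3d, Cd3e and Cd3g left out. Cells with CD3 had the higher median depth in each library, by the widest margin in isotype (4717 UMIs with CD3 and 2818 without).

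Some NK receptors and adaptors were lower with CD3: 2 of 10 activating receptors tested, 2 of 7 inhibitory receptors, which also had 1 higher, and 2 of 9 adaptors and kinases, which also had 1 higher. Ncr1 was at 1337, 1461, 1235 and 225 CPM in cells with CD3 of ICI 1 to 4 and 501 CPM in those of isotype. In cells without CD3 it was at 3496, 3154, 2947 and 392 CPM in the ICI libraries and 995 CPM in isotype. It was lower with CD3 in 5 of 5 libraries (log2 fold change -1.09, SE 0.17, edgeR adjusted p = 0.000398), yet a UMI of Ncr1 was still found in 50.0%, 72.6%, 65.9% and 49.0% of cells with CD3 in ICI 1 to 4 and in 66.1% in isotype.

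Klrb1b, the inhibitory receptor NKR-P1B, differed more, at 353, 88, 64 and 103 CPM with CD3 in ICI 1 to 4 and 93 CPM in isotype. Without CD3 it was at 894, 735, 729 and 598 CPM in the ICI libraries and 475 CPM in isotype (log2 fold change -2.57, SE 0.25, edgeR adjusted p = 2.08e-07). The ranges of cells with and without CD3 did not overlap. Tyrobp, the DAP12 adaptor of activating receptors, was at 492, 407, 235 and 244 CPM with CD3 in ICI 1 to 4 and 447 CPM in isotype. Without CD3 it was at 894, 896, 1215 and 1047 CPM in the ICI libraries and 787 CPM in isotype (log2 fold change -1.48, SE 0.23, edgeR adjusted p = 0.000286), again without overlap. Klrk1 (-0.90), Klrc1 (-0.93) and the Fc receptor adaptor Fcer1g (-0.67) were lower with CD3 too, but each lost its call when 3 or more of the 5 libraries were left out in turn.

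Not all NK receptors moved that way. Klra5 was higher with CD3, at 215, 629, 961 and 507 CPM in ICI 1 to 4 and 320 CPM in isotype, against 81, 197, 152 and 168 CPM without CD3 in the ICI libraries and 163 CPM in isotype. It was higher in 5 of 5 libraries (log2 fold change 1.69, SE 0.26, edgeR adjusted p = 0.000252). Klra4 (0.14, SE 0.35), Klre1 (-0.03, SE 0.28) and Klrd1 (-0.33, SE 0.22) did not pass the test.

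The remaining genes past the threshold had varied roles. Trgv2 (4.88) and Tcrg-V1 (2.26), both gamma variable segments, the delta constant Trdc (1.66), the beta constant Trbc2 (1.30) and Lat (1.22), the scaffold of T cell receptor signalling, were higher with CD3. Ifi27l2a, an interferon-inducible gene, was at 661, 254, 274 and 593 CPM with CD3 in ICI 1 to 4 and 364 CPM in isotype, against 0, 18, 30 and 19 CPM without CD3 in the ICI libraries and 0 CPM in isotype (log2 fold change 4.81, SE 0.45, edgeR adjusted p = 2.08e-07). Its lowest library with CD3 lay above its highest without. Itga4 (1.91), the alpha 4 integrin, Ly6e (1.05) and the cyclin Ccnd2 (1.46) were also higher.

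Tmem176b, an ion channel gene found in innate lymphoid cells, was at 92, 88, 71 and 55 CPM with CD3 in ICI 1 to 4 and 70 CPM in isotype. Without CD3 it was at 1138, 896, 304 and 187 CPM in the ICI libraries and 520 CPM in isotype (log2 fold change -2.70, SE 0.26, edgeR adjusted p = 2.15e-07), with no overlap. Irf8 (-1.51), a transcription factor used by NK and myeloid cells, the interleukin 18 receptor chain Il18rap (-1.02), the integrin Itgb1 (-0.83), Lgals3 (-0.86), Ugcg (-0.89) and Neat1 (-0.97) were lower with CD3. Across lists, 5 of 16 NK markers tested were lower and 0 higher with CD3, with a median log2 fold change of -0.77 against -0.02 over all genes tested. Of 10 cytotoxic granule genes tested, 0 passed in either direction: Gzma was at -1.24 (SE 0.47), Gzmb at 0.89 (SE 0.50), Prf1 at -0.98 (SE 0.35) and Nkg7 at -0.05 (SE 0.18).

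Ncr1, Klrb1b, Tyrobp, Irf8, Tmem176b, Klra5, Ifi27l2a, Trgv2 and Itga4 kept their calls with each library left out in turn. When cells were thinned to 1000 UMIs before they were split, ICI 1 had too few cells and 11 of 606 genes passed; Ncr1 (-1.12), Klrb1b (-2.79), Tyrobp (-1.55) and Klra5 (2.01) were at a similar size. Trgv2 passed at a smaller size (1.76), while Ifi27l2a (1.77, edgeR adjusted p = 0.115), Itga4 (0.57, edgeR adjusted p = 0.787) and Lat (0.82, edgeR adjusted p = 0.39) did not pass.

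**Figure D4:**
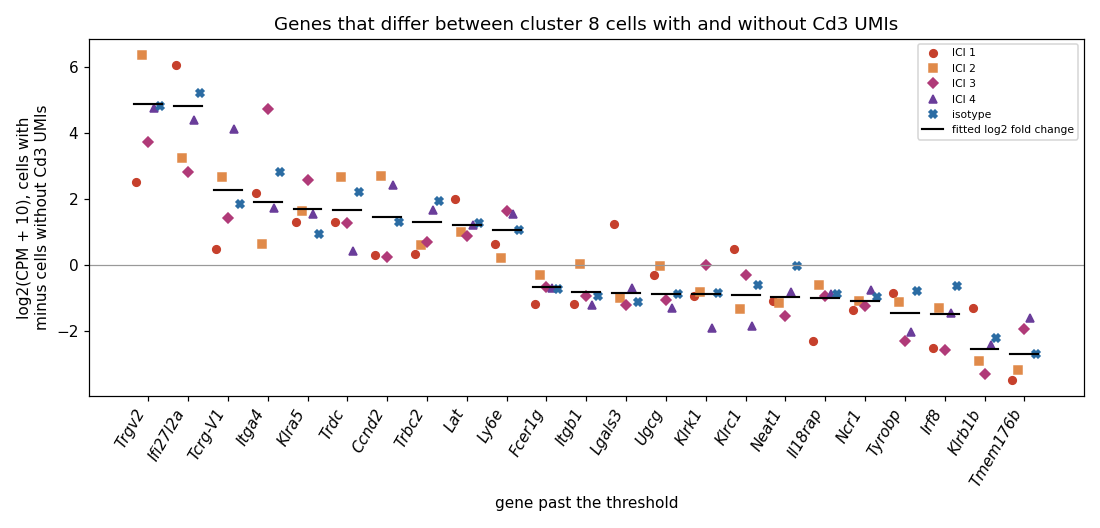
Difference between cluster 8 cells with and without Cd3 UMIs, as log2(CPM + 10) with minus without, for the 23 genes past the threshold, 1 symbol per library and a bar at the log2 fold change fitted by edgeR. For Ncr1, Klrb1b, Tyrobp, Irf8 and Tmem176b all 5 symbols lie below 0; for Klra5, Ifi27l2a and Trgv2 all lie above 0.

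Eomes marks circulating-type NK cells, while the related factor Tbx21 (T-bet) is used by these and by tissue-resident type 1 innate lymphoid cells. A UMI of Eomes was found in 5, 15, 5 and 44 cluster 8 cells of ICI 1 to 4 and in 22 of isotype. Cells with Eomes were compared with the others in ICI 2, ICI 4 and isotype, which had at least 10 cells on both sides. Of 3669 genes, 1 passed (0.0273%): Klra8, the activating receptor Ly49H, at 151 and 203 CPM with Eomes in ICI 2 and ICI 4 and 241 CPM in isotype, against 22 and 19 CPM without Eomes in those ICI libraries and 32 CPM in isotype. Its log2 fold change was 3.13 (SE 0.30, edgeR adjusted p = 7.84e-05), with no overlap, and the call was lost without ICI 4.

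The next genes by p did not pass. Gzma was at 1207 and 463 CPM with Eomes in ICI 2 and ICI 4 and 1549 CPM in isotype, against 111 and 213 CPM without Eomes in the ICI libraries and 661 CPM in isotype (log2 fold change 1.66, edgeR adjusted p = 0.054). Cxcr6, a chemokine receptor of resident lymphocytes, was at 1056 and 38 CPM with Eomes in ICI 2 and ICI 4 and 114 CPM in isotype, against 1627 and 337 CPM without Eomes in the ICI libraries and 363 CPM in isotype (-1.60). Fgl2 (-1.76), Krt83 (-1.81), Il7r (-1.08) and Neat1 (-1.45) had the same direction, and Ubald2 (1.10), Plek (1.45) and H2afx (1.08) the direction of Gzma. Each of these was picked from genes that lay on the same side in all 3 libraries, so that agreement follows from the choice.

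Cluster 8 made up 2.76%, 7.79%, 8.08% and 3.33% of the cells in ICI 1 to 4 and 5.62% in isotype (95% interval 4.45% to 6.99%). The ICI mean was 5.49% ± 2.84 (SD, n = 4), and ICI 2 and ICI 3 lay above isotype while ICI 1 and ICI 4 lay below it (exact two-sided permutation p = 1; the smallest p that 4 libraries against 1 allow is 0.2). With thymocyte-like and cycling clusters 2, 5 and 11 left out of the total, the shares were 6.04% ± 2.60 (SD, n = 4) in ICI and 9.77% in isotype, with 0 of 4 ICI libraries above isotype (exact permutation p = 0.4). Fewer cells of a type and more cells of other types cannot be told apart in such shares.

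The share with a gamma variable segment was 70.2% ± 7.20 (SD, n = 4) in ICI and 56.6% in isotype, higher in 4 of 4 ICI libraries (exact permutation p = 0.4). At 1000 UMIs per cell it was 53.4% ± 9.83 (SD, n = 4) in ICI and 35.5% in isotype, again higher in 4 of 4 (exact permutation p = 0.2, the smallest possible). The share with Eomes was 14.8% ± 8.80 (SD, n = 4) in ICI and 28.9% in isotype, lower in 4 of 4 (exact permutation p = 0.4), but 7.75% and 6.58% at equal depth. Il17a had no UMI in cluster 8 of any library; 0 of 167 cells in ICI 4 allows a share of cells with a UMI of up to 1.80%, and 0 of 76 in isotype up to 3.95%. These limits do not bound the share of cells that express a gene.

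No gene passed the test of ICI against isotype in cluster 8: of 6992 genes tested, 0 had an edgeR adjusted p under 0.05 (0.0%), and DESeq2 called 0. At an unadjusted p under 0.05 there were 165 genes by edgeR and 73 by DESeq2. With a single isotype library, the test took its spread from the ICI libraries. All 4 ICI libraries lay above isotype for 24.0% of the genes and below it for 12.3%.

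The genes with the lowest p among those that had all 4 ICI libraries on 1 side of isotype are given as values that did not pass (edgeR adjusted p 0.92 and above). Itgae, the integrin CD103 of tissue-resident lymphocytes, was at 65, 85, 131 and 117 CPM in ICI 1 to 4 and at 5.45 CPM in isotype, where its 2 UMIs lay in 1 cell. Cd40lg, which activates B cells and dendritic cells, was at 90, 103, 152 and 68 CPM in the ICI libraries and at 16.4 CPM in isotype. Endod1, Tent5a and Nlrc3 were likewise above isotype in all 4. Itm2a was at 52, 70, 47 and 137 CPM in the ICI libraries and at 357 CPM in isotype, and Ccr9, a homing receptor also found on thymocytes, at 39, 0, 6 and 21 CPM and at 142 CPM in isotype. Lmo4 was below isotype in all 4 too. The class II genes H2-Ab1 and H2-Eb1 were also lower in all 4, but 88.1% and 73.5% of their isotype UMIs lay in 1 cell.

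By role, activating receptors had 12 of 18 tested members with a positive log2 fold change (median 0.72), inhibitory receptors 6 of 13 (-0.01), adaptors and kinases 7 of 15 (-0.03), granule genes 8 of 17 (-0.00) and cytokines and chemokines 7 of 12 (0.12). Over all genes tested 3719 of 6992 were positive, with a median of 0.04. ICI 4 differed from the others for the activating receptors, with 4 of 18 members above isotype (median -0.31). Among effectors, Ifng was at 65, 206, 149 and 112 CPM in ICI 1 to 4 and at 90 CPM in isotype, and Ccl5, a chemokine for T cells and monocytes, at 9305, 5408, 4220 and 4854 CPM and at 8555 CPM in isotype. Isotype lay within the ICI range of levels for both. The share of cells with a Ccl5 UMI was 59.5%, 70.5%, 55.3% and 74.3% in ICI 1 to 4 and 90.8% in isotype, lower in 4 of 4 (exact permutation p = 0.2, the smallest possible). At 1000 UMIs per cell it was 61.7% ± 10.9 (SD, n = 4) in ICI and 86.8% in isotype, again lower in 4 of 4 (exact permutation p = 0.4). In cluster 10 at that depth it was 1.49% to 2.60% in the ICI libraries and 4.27% in isotype. Tbx21 was at 155, 272, 280 and 116 CPM in the ICI libraries and at 147 CPM in isotype, also within the range. Transcription factors had 9 of 17 tested members positive (0.08), cytokine receptors 10 of 17 (0.19) and checkpoint receptors and ligands 7 of 12 (0.34). Cycling genes had 0 of 10 (-0.90), glycolysis genes 1 of 10 (-0.28), mature NK genes 1 of 8 (-0.35) and NFkB feedback genes 3 of 13 (-0.36). Several of these medians turned on ICI 4. Without it, checkpoint receptors and ligands had 2 of 12 positive (-1.11), cytokine receptors had 8 of 17 (-0.06), transcription factors had 7 of 17 (-0.07) and NFkB feedback genes had a median of -1.39. In ICI 4 itself, 13 of 13 NFkB feedback genes lay above isotype.

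Markers of other cells were uneven between the groups. Dendritic markers summed to 246, 143, 134 and 120 CPM in ICI 1 to 4 and to 597 CPM in isotype, with 0 of 5 tested members positive. Thymocyte markers summed to 426, 187, 245 and 570 CPM in the ICI libraries and to 790 CPM in isotype, with 1 of 6 positive. Isotype was the highest for both. General T cell markers had 5 of 14 positive (-0.23) and type 1 innate lymphoid cell (ILC1) markers 7 of 12 (0.79). ILC1 markers, which include Cxcr6, Itga1 and Cxcr3, summed to 6009, 5062, 5121 and 1534 CPM in ICI 1 to 4. The sum in isotype was 1785 CPM. In ICI 4, 2 of 12 ILC1 markers lay above isotype (median -0.19). The part of other cells in these values was not tested.

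Homing and residency genes had 13 of 19 tested members positive (median 0.56). Cxcr6 was at 1719, 1529, 1912 and 253 CPM in ICI 1 to 4 and at 262 CPM in isotype. Itga1, the CD49a integrin of resident cells, was at 633, 346, 420 and 58 CPM in the ICI libraries and at 46 CPM in isotype, and Cxcr3 at 414, 452, 560 and 62 CPM and at 74 CPM in isotype. For these 3 genes ICI 4 lay beside isotype, far below ICI 1 to 3. The factor Id2, needed for NK cells and innate lymphoid cells, showed the same split at 866, 1140, 1125 and 161 CPM in the ICI libraries and 207 CPM in isotype.

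Immediate early and stress genes had the reverse split. Of 17 tested, 0 were positive (median -1.08), and their summed level was 2804, 3559, 2594 and 9614 CPM in ICI 1 to 4 and 8784 CPM in isotype. Junb was at 349, 618, 516 and 2088 CPM in the ICI libraries and at 2050 CPM in isotype. Without ICI 4, 325 of 6470 genes were called (5.02%), 68 higher (1.05%) and 257 lower (3.97%) in ICI. Among those lower were 14 of the 16 immediate early and stress genes then tested, 7 of 13 NFkB feedback genes and 3 of 19 homing genes, while 4 of the 19 homing genes were higher. ICI 4 lay on the same side of isotype for 49 of the 68 and for 127 of the 257. Over the 6992 genes tested with all libraries, ICI 4 lay above isotype for 3259. The calls and this comparison used the same isotype library, so they are not independent. Depth, the absence of Xist and red cell transcripts moved with the split of ICI 4 and isotype from ICI 1 to 3. Red cell genes summed to 0, 0, 0 and 7117 CPM in cluster 8 of ICI 1 to 4 and to 49 CPM in isotype, and 57.9% of the ICI 4 Hbb-bs UMIs lay in 1 cell. Their part in the result was not tested. The record numbers of ICI 4 and isotype also follow each other, apart from those of ICI 1 to 3, while the labels name no batch. Without ICI 4, treatment and such a grouping of libraries cannot be told apart.

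Interferon response genes had 22 of 26 tested members positive (median 0.42), and class I presentation genes 14 of 18 (0.44), with 0 called in either list. Irf1, an interferon-induced transcription factor, was at 284, 235, 248 and 155 CPM in ICI 1 to 4 and at 144 CPM in isotype, above it in 4 of 4. Of the antibody targets, Pdcd1 (PD-1) was at 13, 85, 41 and 381 CPM in the ICI libraries and at 82 CPM in isotype, and Ctla4 at 0, 18, 3 and 71 CPM and at 14 CPM in isotype. ICI 4 was the highest for both, while the other ICI libraries lay on both sides of isotype.

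**Figure D5:**
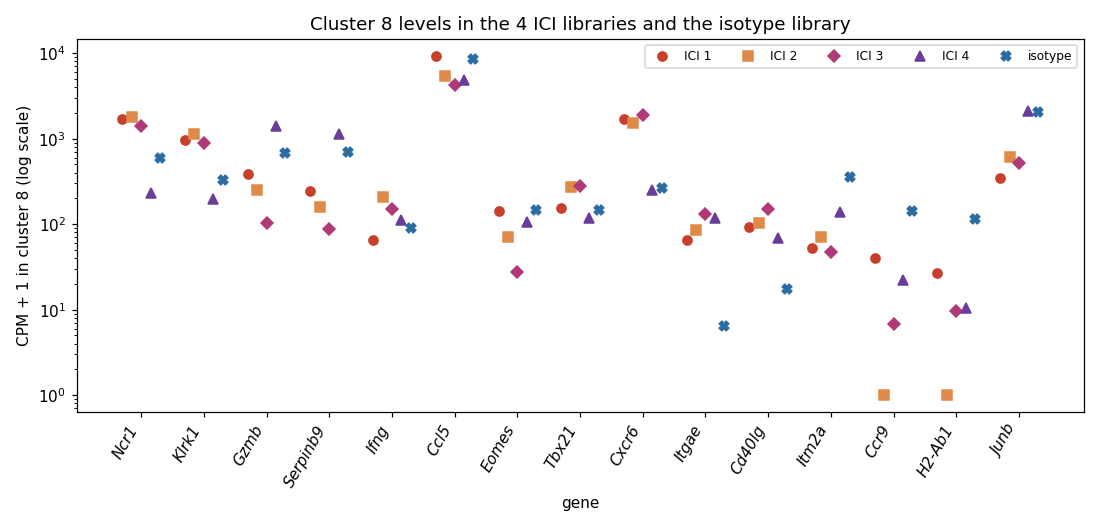
Level in cluster 8 (CPM + 1, log scale) of 15 genes in the 4 ICI libraries and, to their right, the isotype library. For Cxcr6, Junb and Gzmb the ICI 4 symbol lies nearer to isotype than to ICI 1 to 3; for Itgae and Cd40lg all 4 ICI symbols lie above isotype, at 65 to 131 CPM against 5.45 CPM for Itgae.

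Whether the difference between ICI and isotype in cluster 8 departed from that in 2 other clusters was tested with interaction terms. Against effector T-like cluster 1, 12 of 8887 genes passed (0.135%), 11 with a positive term (0.124%) and 1 with a negative term (0.0113%). A positive term means that ICI minus isotype was more positive in cluster 8 than in cluster 1, through a higher ICI level in cluster 8, a lower one in cluster 1, or both. For Fcer1g, cluster 8 had 1150, 2246, 2008 and 737 CPM in ICI 1 to 4 and 1300 CPM in isotype, while cluster 1 had 9.38, 2.05, 5.91 and 1.24 CPM in the ICI libraries and 102 CPM in isotype. Itgae was at 65, 85, 131 and 117 CPM in cluster 8 of ICI 1 to 4 and 5.45 CPM in isotype, while in cluster 1 it was at 58, 48, 26 and 71 CPM in the ICI libraries and 75 CPM in isotype (log2 interaction 4.77, SE 0.97, edgeR adjusted p = 0.0386). Cd40lg (2.81) and Ly6a (1.19), an interferon-inducible surface protein, had the same sign, and Lgals1 (-1.77) the opposite one. Ly6a was at 1680, 2717, 3285 and 1467 CPM in cluster 8 of ICI 1 to 4 and 1008 CPM in isotype, and in cluster 1 at 1383, 2816, 2922 and 1313 CPM in the ICI libraries and 2205 CPM in isotype.

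Several of these calls rest on few cells, since isotype held 45 cluster 1 cells. In cluster 1 of isotype, 1 cell held 95.9% of the Il13 UMIs, 100% of the Csf2 UMIs, 80.8% of those of Tnf, 52.6% of those of Fcer1g, 72.1% of those of Cd40lg, 75.0% of those of Klra7 and 100% of those of Trdv5. The 14 Itgae UMIs lay in 4 cells. Without ICI 1 the count was 3 genes, and Fcer1g was the gene called with every ICI library left out in turn. Against cluster 10, 9 of 7109 genes passed (0.127%), all with a positive term. Among them 5 were red cell genes, which had lower levels in cluster 10 of ICI than of isotype in 4 of 4 libraries, and DESeq2 called 0, with 54 genes at an unadjusted p under 0.05. Of the genes called against cluster 1, DESeq2 also called Klra7, Trdv5 and Ly6a, but not Fcer1g, Itgae, Cd40lg or Lgals1. Ncr1, Ifng, Gzmb and Prf1 did not pass against cluster 1. Against cluster 10 the test had nothing to read for Ncr1, which had 0 UMIs there in every library.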

How the data were processed

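Counts, deposited by the authors as whole-number UMIs for 18767 genes, came from Cell Ranger and Seurat with mouse build mm10, per the submitters' processing notes. The mitochondrial percent of each cell, cell cycle score values, phase calls and 17 clusters stand in the cell table, per the file headers. The headers give no resolution for these 17 clusters. A separate clustering of the RNA data carries a resolution of 0.4 in its header. It placed most of the cells described here in RNA cluster 4 in ICI 1 to 3 (37, 94 and 93 cells). In ICI 4 most were in RNA cluster 12 (163 cells), and in isotype they were in RNA cluster 7 (76 cells). The authors' 17 clusters were kept, and score values served only to drop cells called S or G2M. ICI 1 to 3 hold 1523, 1219 and 1163 cells in the table, against 1688, 1234 and 1178 by their labels. No doublet caller was run; cells with 2 or more macrophage genes were removed as an alternative.

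CPM is a gene's UMIs per 1000000 UMIs of the cells summed. The summed depth of cluster 8 was 77378, 272015, 343120 and 1042052 UMIs (ICI 1 to 4), with 366906 UMIs for isotype. edgeR 4.0.16 (quasi-likelihood, TMM scaling, filterByExpr, Benjamini-Hochberg, threshold 0.05; R 4.3.3) tested summed counts and was tested on simulated data. Shares used exact permutation over libraries. DESeq2 1.42.0 was an alternative. Named genes were the leading 20 (CPM plus a pseudocount of 10), the 10 largest changes past the threshold with all libraries on the same side, or else the 5 smallest p, plus members of role lists. Members and lists were chosen with earlier results of these data known. 2 alternatives were added after the data were seen: cells with Cd3 transcripts only, and 4 or more Cd3 UMIs against none. Some genes that the rule names are not reported here.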

Additional observations from a re-analysis of the deposited data

Results flagged for a closer look

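In 5 of 46 groups of 4 ICI values tested, the highest or lowest library stood far from the others, relative to the range. Chance gives about 1 in 20. Klra4 was at 582 CPM in ICI 1, against 191 to 238 CPM in the other ICI libraries. Klrb1a was at 191 CPM (52 UMIs) in ICI 2, against 168 to 170 CPM, with isotype at 196 CPM. That gap is small in size and was flagged because the other ICI values lay close together. Serpinb6b, an intracellular protease inhibitor, was at 838 CPM and Serpinb9 at 1138 CPM in ICI 4, the highest in each case. Isotype was at 548 CPM for Serpinb6b and 703 CPM for Serpinb9, above ICI 1 to 3 for both. A Gzmb UMI was found in 58.1% of ICI 4 cells, against 2.38% to 11.6% in ICI 1 to 3 and 40.8% in isotype. At 1000 UMIs per cell the highest ICI share was 42.5%, with isotype at 30.3%.

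The difference between ICI and isotype departed from that in cluster 1, by the interaction test, for 12 genes. The log2 interactions were 4.69 for Fcer1g, 8.96 for Il13, 4.13 for Csf2, 4.32 for Cxxc5, 3.42 for Tnf and 6.87 for Klra7. They were -1.77 for Lgals1, 2.81 for Cd40lg, 4.77 for Itgae, 6.31 for Trdv5, 1.19 for Ly6a and 4.47 for Hbb-bs. Il13 had 0 UMIs in cluster 8 of isotype and of ICI 1 to 3, and 0 in cluster 1 of ICI 1 to 3. In cluster 8 of ICI 4, 1 cell held 85.7% of its 35 UMIs.

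Against cluster 10, 9 genes differed in the same way. The red cell genes had log2 interactions of 8.31 (Hbb-bs), 14.40 (Hbb-bt), 8.58 (Hba-a1), 8.28 (Hba-a2) and 8.55 (Alas2), and all 5 lost their calls without ICI 4. Trbv29 had 7.40, Plac8 6.50, Isg20 3.95 and Cxcl10 5.88. Several of these calls rest on few isotype cells. All isotype Trbv29 UMIs lay in 1 cell of cluster 8 (10 UMIs) and 1 cell of cluster 10 (16 UMIs). In cluster 10 of isotype, 1 cell held 90.5% of the Hbb-bt UMIs, 86.2% of those of Alas2 and 55.6% of those of Cxcl10. For Isg20 the highest cell held 23.5%. Values for genes at 0 in a whole group depend on the prior count of the fit and are no bounds.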

How the results depend on the processing

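For ICI against isotype, 3 genes passed with no filter on low counts and 0 with DESeq2, RLE scaling or any removal of cells or genes tried; leaving out 1 ICI library gave 0 to 325 genes, the highest without ICI 4. Genes that go with Cd3 transcripts numbered 23; there were 13 with DESeq2, 79 with no filter, 5 with no library block, 11 at 1000 UMIs per cell and 12 to 32 with 1 library left out, the lowest without isotype. Genes that go with Eomes numbered 1; there were 3 with DESeq2, 13 with RLE scaling, 51 with no filter and 1 to 47 with 1 library left out. The interaction with cluster 1 held 12 genes, against 4 with DESeq2, 37 with no filter and 3 to 22 with 1 ICI library left out. The interaction with cluster 10 held 9 genes, against 0 with DESeq2, 17 with no filter and 4 to 34 with 1 ICI library left out. The difference in the share of cluster 8 was -0.13 percentage points, -3.73 without clusters 2, 5 and 11 and -4.08 among cells with no Cd3 UMI. The cause of these shifts was not tested. No called gene reversed its direction; the uncalled share difference took both signs, from -0.99 to 0.78 with 1 ICI library left out. The Eomes split at 1000 UMIs per cell was not run, since 1 library had 10 cells on both sides. No paired analysis was possible because the labels share no replicate numbers between ICI and isotype and there is 1 isotype library. Precision is limited by 42 shallow cells in ICI 1 and by 10 to 22 cells without CD3 per library.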

Other observations

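The authors' phase calls and cycling transcripts did not give the same order of libraries in cluster 8. Cells called G1 made up 73.8%, 44.2%, 44.7% and 94.0% in ICI 1 to 4 and 85.5% in isotype. Cells with 3 or more cycling genes made up 9.52%, 20%, 35.1% and 59.9% in the ICI libraries and 42.1% in isotype, in the order of depth among the ICI libraries. At 1000 UMIs per cell the second share was 2.60% ± 2.65 (SD, n = 4) in ICI and 5.26% in isotype. No cycling is read from these calls.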
